A study of Homo sapiens with 95 samples.

Results

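The genes described here are 10 members of the Hippo pathway and of the set of genes that YAP switches on, which were chosen by name from the 27978 genes counted in each sample. They are the coactivators YAP1 and WWTR1, the kinases LATS1 and LATS2, the adaptors AMOT, AMOTL2 and AJUBA, and the YAP targets ANKRD1, CYR61 and CTGF, of which the last pair are also written CCN1 and CCN2. They were measured by sparse full length sequencing (SFL), a pooled, barcoded RNA-seq of RNA depleted of ribosomal RNA, in 95 samples of AALE, an immortalized human bronchial epithelial cell line. Genotype and chemical exposure were crossed: FAT1 or CDKN2A was knocked out with CRISPR, or NRF2 (the gene NFE2L2), FGFR1, NRG1 or PIK3CA was overexpressed, and each line was exposed to 24 μg/ml of the cigarette smoke condensate CSC, 173 μM of BaP (benzo[a]pyrene), 490 μM of the nitrosamine NNK, or to the vehicle DMSO. The GFP line, which received the Cas9-EGFP plasmid with no guide RNA, was the control of both knockouts, and the HcRed line, which carried a vector with only that reporter, was the control of all 4 overexpression lines. All lines share the AALE background and were plated to confluency before exposure. Whether the knockout lines were single clones and how long the exposures lasted were not given in the sources used here. Of the 32 combinations of line and treatment, 31 had 3 samples and CSC-treated FGFR1 cells had 2.

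The Hippo pathway is a kinase cascade that reads cell density, cell shape and tension. When it is on, the kinases LATS1 and LATS2 phosphorylate the transcriptional coactivators YAP and TAZ (encoded by YAP1 and WWTR1), which are then held in the cytoplasm or degraded. When it is off, YAP and TAZ enter the nucleus, bind TEAD factors and raise genes such as CTGF, CYR61 and ANKRD1. In airway epithelium YAP is known for its role in basal cells and their differentiation. YAP and TAZ are controlled largely by phosphorylation and location, so messenger RNA levels of the cascade and of its targets are separate readouts.

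Counted reads per sample lay between 287446 and 2116383 with a median of 934235, so that 3 counts were worth 1.42 to 10.4 CPM, and 9 libraries held under 500000 counts. Levels below are CPM (counts per 1000000 counted reads) after TMM scaling of all 95 samples together. The transcript of each perturbed gene differed from its control without overlap over the samples of both lines. FAT1 had 67.4 to 128 CPM in FAT1 cells against 258 to 447 in GFP cells, and CDKN2A had 34.7 to 67.1 against 78.3 to 148. All 7 basal epithelial markers had a mean of at least 10 counts, against 1 of 7 fibroblast, 1 of 5 immune and none of 5 endothelial, 3 ciliated and 4 secretory markers. The study calls the samples of a combination biological replicates, and p-values measure the spread between these samples. The labels name no separate lines within a genotype, so a perturbation and other differences between lines cannot be told apart. In cultures counted whole, fewer cells of a type and less RNA per cell cannot be told apart.

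The 250 bases before the transcription start are shown for 3 members, because TEAD factors, the DNA-binding partners of YAP, bind at the letters GGAATG. These letters were searched on both strands in RefSeq promoter windows of the GRCh38.p14 build, and capitals mark each match in the lines that follow. CTGF is shown for its 3 matches and ANKRD1 for 2. AMOTL2 is shown for the match in 1 of its 2 windows, which reads CATTCC because it lies on the opposite strand. The windows are chr6:131951373-131951622 on the minus strand for CTGF, chr10:90921088-90921337 on the minus strand for ANKRD1 and chr3:134374448-134374697 on the minus strand for AMOTL2.
CTGF: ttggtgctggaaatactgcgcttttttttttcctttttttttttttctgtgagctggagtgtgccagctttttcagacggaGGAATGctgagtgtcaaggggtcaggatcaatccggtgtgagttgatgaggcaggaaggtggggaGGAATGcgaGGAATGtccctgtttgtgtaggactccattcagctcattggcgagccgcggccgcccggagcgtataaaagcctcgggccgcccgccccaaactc
ANKRD1: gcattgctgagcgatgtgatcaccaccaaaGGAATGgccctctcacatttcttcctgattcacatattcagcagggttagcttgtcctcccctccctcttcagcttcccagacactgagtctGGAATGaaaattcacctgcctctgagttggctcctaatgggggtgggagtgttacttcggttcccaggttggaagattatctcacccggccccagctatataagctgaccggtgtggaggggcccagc
AMOTL2: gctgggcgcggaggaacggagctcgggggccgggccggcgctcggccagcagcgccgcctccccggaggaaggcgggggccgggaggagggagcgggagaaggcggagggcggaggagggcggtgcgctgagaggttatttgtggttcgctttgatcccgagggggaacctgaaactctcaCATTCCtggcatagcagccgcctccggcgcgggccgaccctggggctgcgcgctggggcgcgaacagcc
Over all 35116 windows of this length, 11.9% held the motif at least once. The 9 members with a window have 13 windows between them, of which 5 held it, one each of CTGF, ANKRD1, AMOTL2, YAP1 and AJUBA. The first bases of the CTGF matches lie 169, 104 and 95 bases before the start, those of ANKRD1 220 and 128, and that of AMOTL2 69. No promoter window was at hand for CYR61. A match is a description of these letters only. As the values below show, CTGF was among the most variable members over the 32 combinations and ANKRD1 was hardly counted.

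The level of the members covered a wide range. Per kilobase of transcript, the median over the 95 samples was 65.9 CPM for AJUBA, a scaffold that restrains LATS kinases, 47.6 for YAP1 and 41.9 for CYR61, a secreted matrix protein. Lower in the order came AMOTL2 with 31.5, WWTR1 with 20.2, LATS1 with 19.9 and LATS2 with 9.77. CTGF, a secreted matrix protein related to CYR61, had 7.28 CPM per kilobase and AMOT, which binds YAP at junctions, had 0.86. ANKRD1, an ankyrin repeat protein of muscle and of stretched cells, was at 0 in 59 of 95 samples and never above 5 counts. At this depth ANKRD1 could not be compared, and it passed the minimum mean count of 1 only among DMSO-treated overexpression lines. The other 9 members passed it in every comparison. WWTR1 and LATS1 had overlapping ranges (8.74 to 44.6 and 13.6 to 28.6 CPM per kilobase), as did YAP1 and CYR61 (25.3 to 60.9 and 5.73 to 118). AMOT had a median of 5 counts per sample and was at 0 in 12 samples, and CTGF had a median of 13 counts, so that values of both rest on few reads. The SD of the 32 combination means on the log2 scale was 1.75 for AMOT and 0.80 for CYR61, with CTGF between them, against SDs of 0.79 and 0.26 within combinations. For YAP1, which varied little, the corresponding SDs were 0.29 and 0.11. On GRCh37 (hg19), the build of the counts, CYR61 lies at chr1:86046444-86050272 on the plus strand, CTGF at chr6:132269316-132272512 on the minus strand and AMOT at chrX:112017731-112084059 on the minus strand, and reads were counted over their exons.

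**Figure D1:**
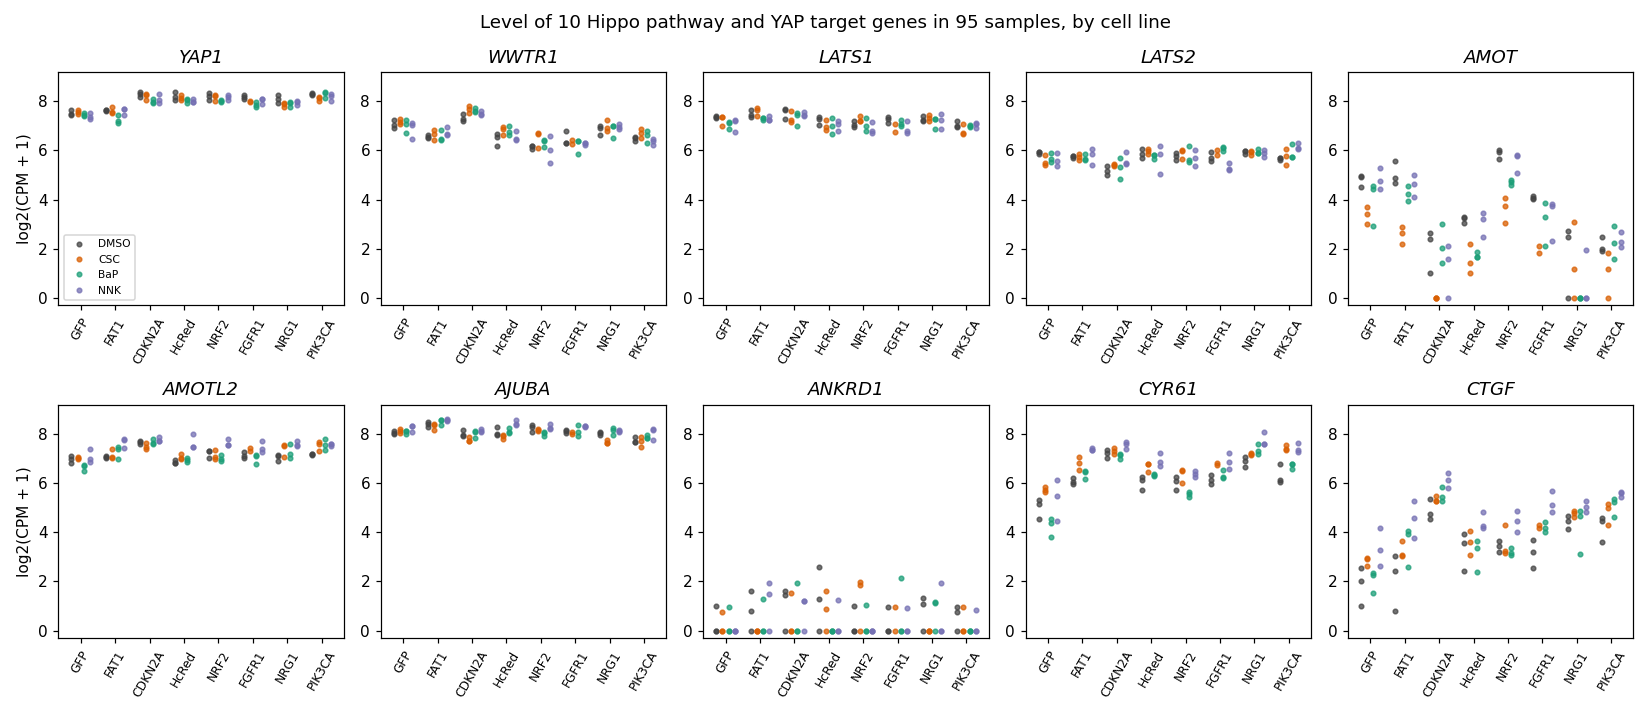
Each panel plots log2(CPM + 1) of 1 gene (y axis) in the 95 samples, grouped by cell line (x axis) and coloured by treatment. AMOT, CYR61 and CTGF spread over several log2 units between lines, YAP1, LATS1 and AJUBA lie in narrow bands, and ANKRD1 is near 0 throughout.

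Each line was compared with its control, first in DMSO (3 against 3 samples) and then over the 4 treatments with treatment as a covariate, by limma-voom with Benjamini-Hochberg adjustment over all genes tested. In DMSO, 3 of 9 tested members differed from GFP in FAT1 cells, where 26.3% of all genes did, and 6 of 9 in CDKN2A cells, where 37.2% did. Against HcRed in DMSO, 2 of 10 members differed in NRF2 cells (7.16% of all genes), 2 in NRG1 cells (2.04%) and 2 in PIK3CA cells (8.6%). No member differed in DMSO-treated FGFR1 cells (1.86% of all genes) in limma-voom, edgeR or DESeq2, with 2 members at an unadjusted p under 0.05 in limma-voom. Over all treatments, 6 of 9 members differed in FAT1 cells (48.9% of all genes), 9 in CDKN2A cells (57.6%), 3 in NRF2 cells (21.6%), 3 in FGFR1 cells (13.5%), 5 in NRG1 cells (10.8%) and 4 in PIK3CA cells (27.8%). In fits limited to genes with a mean of at least 10 counts, the shares were larger. In DMSO they were 34.6% in FAT1 (3 of 8 members) and 47.6% in CDKN2A cells (6 of 9). Over all treatments they were 58.2% in FAT1 (5 of 8), 67.3% in CDKN2A (8 of 8) and 27.9% in NRF2 cells (4 of 9). For FGFR1, NRG1 and PIK3CA cells they were 17.6% (2 of 8), 14.1% (3 of 8) and 34.8% (4 of 8). Comparisons with the same control share its samples and are not independent of one another.

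Of the coactivators, YAP1 passed the test over all treatments in CDKN2A cells and WWTR1 in 5 lines. YAP1 had 240, 282 and 329 CPM as its lowest, median and highest value in the 12 CDKN2A samples, against 154, 179 and 199 in the 12 GFP samples, with no overlap. The log2 fold change was 0.66 ± 0.05 (SE; limma-voom adjusted p = 1.14e-17). The HcRed line, however, had 242, 270 and 329 CPM, the same range as CDKN2A cells. With HcRed in place of GFP as the control, an alternative chosen after the data were seen, the YAP1 difference was 0.05 with an adjusted p of 0.39. In FAT1 cells YAP1 had 137, 191 and 215 CPM, a log2 fold change of 0.07 from GFP (95% interval -0.05 to 0.18). All 12 FAT1 samples lay below all 12 HcRed samples, however, and against HcRed the value was -0.52 (adjusted p = 5.05e-13), so that YAP1 in both knockout lines is read differently with each control.

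Over all treatments WWTR1, which encodes TAZ, differed from its control in 5 of the 6 lines and in both directions. CDKN2A cells had 144 to 225 CPM with a median of 188, against 88.6 to 153 with a median of 133 in GFP cells, and the ranges overlapped slightly. The log2 fold change was 0.50 ± 0.07 in CDKN2A cells and 0.87 against HcRed. In FAT1 cells WWTR1 was lower than in GFP by 0.37 on the log2 scale, with 84.9, 98.1 and 121 CPM, but it was 0.01 higher than HcRed (adjusted p = 0.93), so this direction rests on the GFP line. NRF2 cells had 44, 70.8 and 104 CPM against 72.2, 100 and 126 in HcRed cells, a log2 fold change of -0.38 ± 0.08. FGFR1 cells fell by 0.30 on the log2 scale, a call that was lost without the third replicates (adjusted p = 0.11). In NRG1 cells WWTR1 rose by 0.25, and this was lost when any replicate was left out, with adjusted p up to 0.35. In DMSO alone WWTR1 passed only in FAT1 cells (-0.55, limma-voom adjusted p = 5.79e-04). The adjusted p in DMSO was 0.097 in CDKN2A, 0.12 in NRF2, 0.93 in FGFR1 and 0.20 in NRG1 cells.

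Over all treatments LATS1 differed from control in both knockout lines and LATS2 in CDKN2A cells, and neither passed the test in an overexpression line. LATS2 had 27.7, 40.6 and 60.7 CPM in CDKN2A cells and 40.7, 52.3 and 60.3 in GFP cells, overlapping ranges with a log2 fold change of -0.41 ± 0.11 over all treatments and -0.77 ± 0.18 in DMSO. Against HcRed the difference over all treatments was -0.52. In FAT1 cells LATS2 differed from GFP by 0.02 (95% interval -0.17 to 0.20) over all treatments and by -0.20 (-0.51 to 0.12) in DMSO. LATS1 rose by 0.23 ± 0.06 in FAT1 cells and 0.23 ± 0.07 in CDKN2A cells, where it was 0.37 and 0.35 against HcRed. In DMSO alone LATS1 did not pass in either line (adjusted p = 0.51 and 0.18). In FAT1 cells the LATS1 call was lost without the second replicates (adjusted p = 0.076), and in CDKN2A cells without the third (adjusted p = 0.083). In the 4 overexpression lines LATS1 fold changes lay between -0.11 and 0.18 and LATS2 between -0.05 and 0.09 on the log2 scale, and no call was made.

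Of the 10 members AMOT had the largest spread of combination means. In DMSO, it had 64.6, 60.2 and 48.8 CPM in the 3 NRF2 samples and 8.59, 7.22 and 8.91 CPM in the 3 HcRed samples. The NRF2 samples were all higher, and the fold change was 6.54 (log2 2.71 ± 0.32, limma-voom adjusted p = 6.31e-10). Over all treatments it was 6.42-fold (log2 2.68 ± 0.21), with 95% intervals that lay above 1 on the log2 scale within each treatment. The within-treatment values of this difference were 2.72 in DMSO, 2.35 in CSC, 3.15 in BaP and 2.42 in NNK. The GFP line, which was not the control here, had 30.1, 22 and 29.2 CPM in DMSO, below all 3 NRF2 samples but above HcRed. Over 12 samples each, GFP cells had 6.66 to 37.8 CPM and NRF2 cells 7.22 to 64.6. The size of the difference therefore rests on HcRed as the control, and NRF2 cells were not tested against GFP.

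In CDKN2A cells AMOT went the other way from its control. The 3 DMSO samples had 4.32, 1.03 and 5.3 CPM, and the GFP samples 30.1, 22 and 29.2. All CDKN2A samples were lower, with a log2 fold change of -2.94 ± 0.48 in DMSO and -2.93 ± 0.30 over all treatments (limma-voom adjusted p = 3.65e-13). AMOT was also low in the HcRed line (1.01, 4.06 and 10 CPM as lowest, median and highest of 12 samples), so that the change over all treatments was -1.09 against HcRed (adjusted p = 0.003), and that in DMSO -1.30 with an adjusted p of 0.056. In CSC-treated CDKN2A cells AMOT had no count in any of the 3 samples, which allows up to 5.76, 6.19 and 3.47 CPM at their depths.

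AMOT was hardly counted in NRG1 cells, with a median of 0 and at most 6 counts in 12 samples. The log2 fold change from HcRed was -1.80 ± 0.39 (adjusted p = 7.85e-04), but without the second replicates it was -1.18 with an adjusted p of 0.1. In FGFR1 cells AMOT had 2.53, 12.3 and 16.7 CPM as lowest, median and highest of 11 samples, and rose by 0.86 ± 0.24 on the log2 scale, a call that was lost without the third replicates (0.71, adjusted p = 0.16). AMOT had a higher median, 21.3 CPM, in the GFP line. In PIK3CA cells it had 0, 3.08 and 6.56 CPM, with a log2 fold change of -0.72 (95% interval -1.30 to -0.14, adjusted p = 0.053). In FAT1 cells it had 3.58, 20.1 and 46.4 CPM, and the difference from GFP was 0.04 (95% interval -0.30 to 0.38). Against HcRed, whose range FAT1 cells overlapped, it was 1.85 (adjusted p = 1.18e-10).

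**Figure D2:**
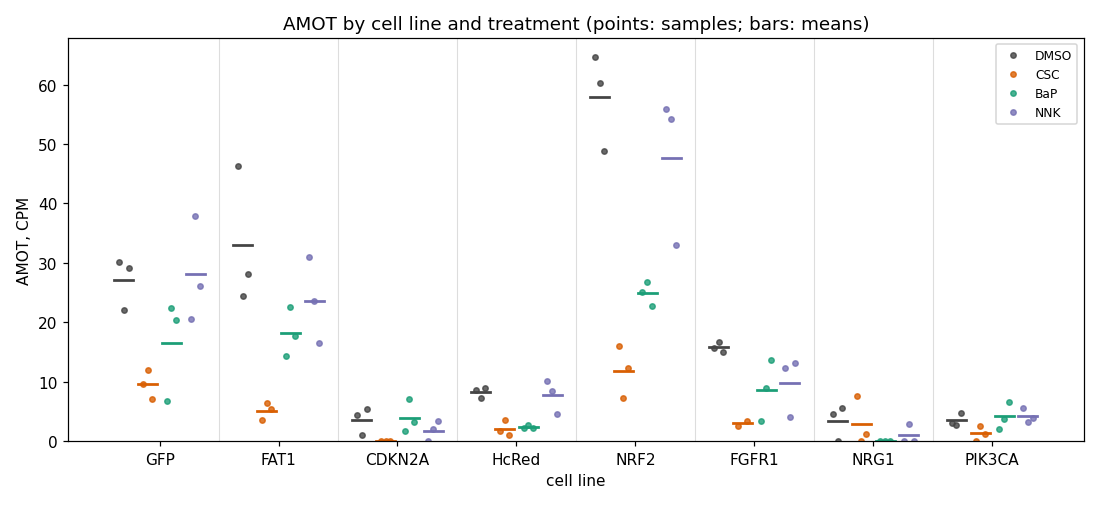
AMOT in CPM (y axis) by cell line (x axis) and treatment (colour), with points for samples and bars for the mean of each combination. DMSO-treated NRF2 samples lie between 48.8 and 64.6 CPM, CDKN2A, NRG1 and PIK3CA samples lie below 7.5 CPM, and in NRF2, GFP, FAT1, FGFR1 and HcRed cells CSC lies below DMSO.

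AMOTL2, a relative of AMOT, differed far less. It had 169, 201 and 232 CPM in CDKN2A cells and 88.5, 126 and 169 in GFP cells, with ranges that met at their ends, and rose by 0.71 ± 0.07 on the log2 scale (0.53 against HcRed). It rose by 0.34 ± 0.07 in PIK3CA cells (139, 184 and 223 CPM, against 113, 127 and 253 in HcRed) and by 0.32 ± 0.07 in FAT1 cells (0.18 against HcRed). The rise of 0.20 in NRG1 cells was lost without the second replicates (0.06, adjusted p = 0.78). In DMSO alone AMOTL2 passed in CDKN2A cells (0.69, limma-voom adjusted p = 5.36e-08) and in NRF2 cells (0.36, adjusted p = 0.0497). The NRF2 call was marginal, and over all treatments the value there was 0.15 (limma-voom adjusted p = 0.088). With DESeq2, no filter or all 95 samples in the fit, only 1 member was called in DMSO-treated NRF2 cells. AMOTL2 did not pass in DMSO in FAT1 (0.08, adjusted p = 0.64), PIK3CA (0.32, adjusted p = 0.063) or NRG1 cells (0.20, adjusted p = 0.52). AJUBA, the LIM-domain scaffold, rose by 0.32 ± 0.05 in FAT1 cells, with 288, 350 and 395 CPM against 253, 277 and 321, and by 0.35 against HcRed. It fell by 0.30 ± 0.05 in PIK3CA cells, which had 176, 225 and 295 CPM against 220, 265 and 384 in HcRed cells. In CDKN2A cells it fell by 0.14, a call lost without the first replicates (adjusted p = 0.15).

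CYR61 and CTGF, the standard readouts of YAP and TEAD activity, passed the test over all treatments as higher than control in 4 and 5 of the 6 lines. CYR61 had 163, 129 and 148 CPM in the 3 DMSO-treated CDKN2A samples and 22.4, 38.3 and 34.5 in the GFP samples. CTGF had 39.8, 25.7 and 22.1 CPM in these CDKN2A samples and 0.97, 4.79 and 3.07 in the GFP samples. For both genes all CDKN2A samples lay above all GFP samples, in DMSO and over the 12 samples of each line. Over all treatments CYR61 rose 4.26-fold (log2 2.09 ± 0.11, limma-voom adjusted p = 4.36e-26) and CTGF 8.04-fold (log2 3.01 ± 0.22, adjusted p = 3.42e-19). Against HcRed the log2 values were 0.81 and 1.87 (adjusted p = 5.05e-15 and 8.70e-16), so the direction did not depend on the control line and the size did.

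The GFP line had the lowest levels of both genes among the 8 lines. Over its 12 samples CYR61 had 13, 36.4 and 69.8 CPM as lowest, median and highest value, against 51.5, 84.4 and 147 in HcRed cells. CTGF had 0.97, 4.94 and 17 CPM in GFP cells and 4.26, 11.2 and 27.6 in HcRed cells. The immediate-early genes, a list of 11 that respond within minutes to growth factors and stress, moved with this: their summed level was 230 to 832 CPM with a median of 639 in GFP cells, against medians of 1104 to 1507 CPM in the other 7 lines, and its part in the CYR61 and CTGF differences was not tested. The choice of control bore most on FAT1, an atypical cadherin that acts upstream of Hippo signalling. CYR61 in DMSO had 65.1, 73.4 and 61.3 CPM in FAT1 cells, all above the GFP samples, with a log2 fold change of 1.06 ± 0.19 (adjusted p = 3.01e-05), but HcRed cells had 69.6, 75.1 and 51.5 CPM and the difference from them was 0.06 (adjusted p = 0.84). Over all treatments the FAT1 differences were 1.46 ± 0.12 for CYR61 and 1.02 ± 0.28 for CTGF against GFP. Against HcRed they were 0.23 (adjusted p = 0.014) and -0.07 (adjusted p = 0.84). The rise of CTGF in FAT1 cells over all treatments therefore rests on the GFP line. It was not seen in DMSO alone, where the log2 fold change of CTGF from GFP was 0.05 ± 0.69 (limma-voom adjusted p = 0.97). With a mean of 3.83 counts there, this value is too uncertain to tell no change from a rise of 1.02.

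Over all treatments both targets were higher in the NRG1 (growth factor) and PIK3CA (kinase) overexpression lines than in HcRed cells. CYR61 in DMSO had 119, 135 and 100 CPM in NRG1 cells, all above the HcRed samples, and over all treatments it rose 1.77-fold (log2 0.82 ± 0.08, adjusted p = 4.76e-13). CTGF in DMSO had 16.7, 24.5 and 21.2 CPM in NRG1 cells, all above the 4.3, 14.4 and 10.9 CPM of HcRed cells, and over all treatments it rose 2.09-fold (log2 1.06 ± 0.18, adjusted p = 1.27e-05). In PIK3CA cells CTGF had 22.9, 21 and 11.1 CPM in DMSO, overlapping HcRed by 1 sample, and rose 2.47-fold over all treatments (log2 1.31 ± 0.17, adjusted p = 2.40e-09). The DMSO-only calls of CTGF were fragile, since without the first HcRed sample the log2 value was 0.67 (adjusted p = 0.52) for NRG1 and 0.50 (adjusted p = 0.53) for PIK3CA. CYR61 rose by 0.52 ± 0.08 in PIK3CA cells over all treatments, and its 95% interval in DMSO alone was -0.04 to 0.59. The 7 basal epithelial markers moved in these lines too: 1 rose and 5 fell in NRG1 cells (median log2 fold change -0.53) and 1 rose and 6 fell in PIK3CA cells (-0.59). Their summed level was 6356 to 8549 CPM in NRG1 and 6655 to 7889 in PIK3CA cells, below the 9525 to 13388 of HcRed cells. In FAT1 cells none of them rose and 5 fell, and in CDKN2A cells 1 rose and 5 fell, with sums of 6592 to 10122 and 5464 to 8668 CPM against 9720 to 11824 in GFP cells. The part of these markers in the CYR61 and CTGF differences was not tested.

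NRF2, the activator of antioxidant genes, was the only line in which CYR61 fell. It had 41.8, 70.6 and 91 CPM as lowest, median and highest of 12 NRF2 samples, a range that overlapped that of HcRed and reached lower, and fell by 0.40 ± 0.09 on the log2 scale over all treatments (adjusted p = 3.06e-04). In DMSO the samples overlapped (52.3, 74.9 and 66.2 CPM against 69.6, 75.1 and 51.5), with a log2 value of -0.02. Within BaP the NRF2 samples had 49.3, 41.8 and 46.6 CPM against 77.4, 80.5 and 83, with no overlap and a value of -0.78 (95% interval -1.15 to -0.41). CTGF in NRF2 cells differed by 0.07 (95% interval -0.33 to 0.46). In FGFR1 cells CTGF rose by 0.67 ± 0.18, a call lost without the first or the third replicates (adjusted p = 0.13 and 0.096), and CYR61 differed by 0.10 (95% interval -0.06 to 0.26).

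**Figure D3:**
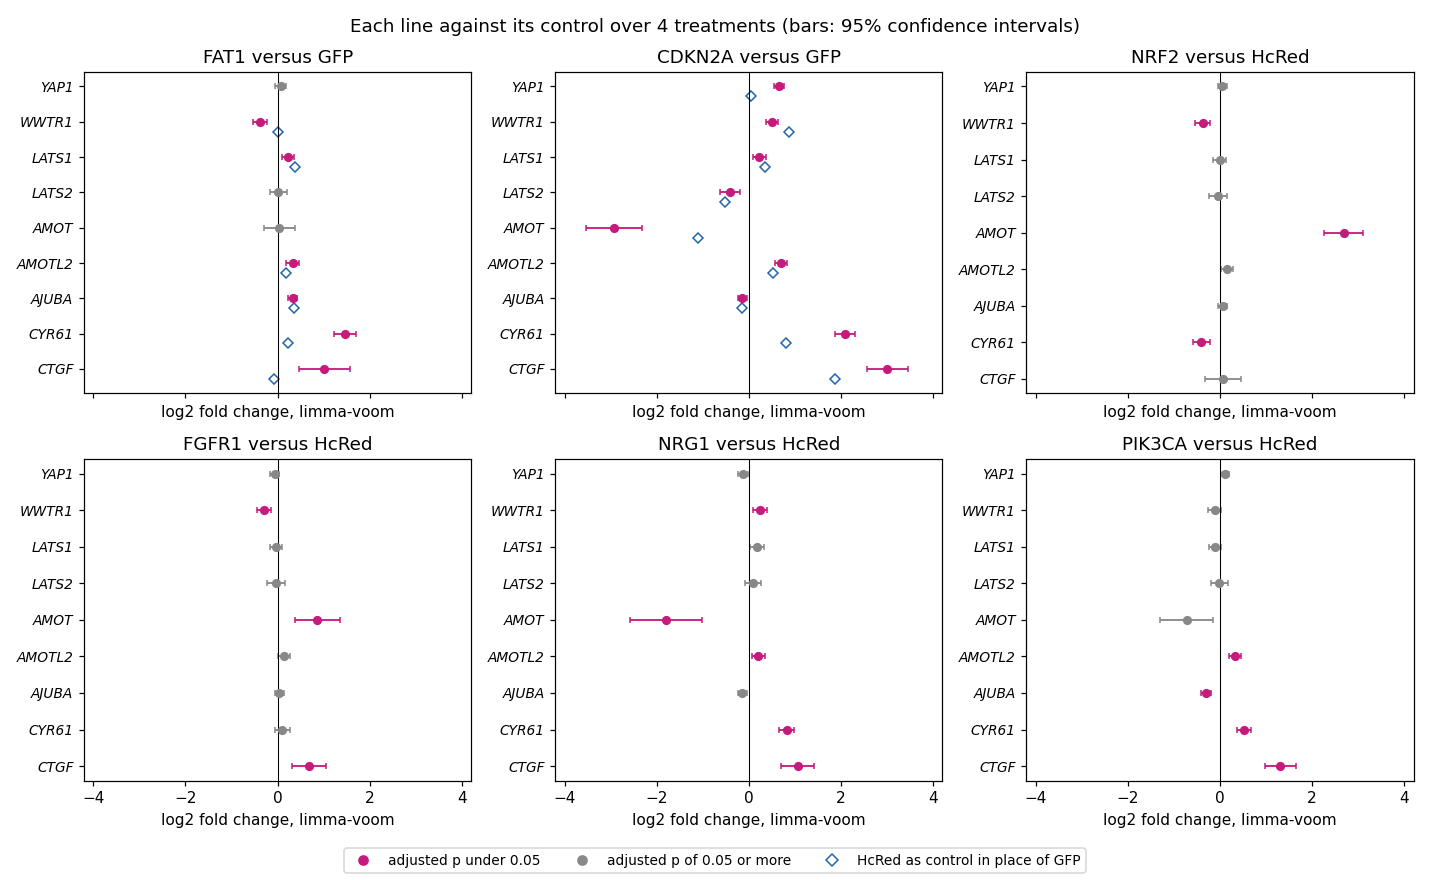
Log2 fold change (x axis) of 9 members (y axis) in each line against its control over 4 treatments, with 95% confidence intervals. Pink points passed an adjusted p of 0.05 and grey points did not, and diamonds give called members of the knockout lines with HcRed as the control. CYR61 in FAT1 cells moves from 1.46 to 0.23 and AMOT in CDKN2A cells from -2.93 to -1.09 with that control, and AMOT in NRF2 cells lies at 2.68.

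Beyond the 10 members, other genes of the pathway were counted from lists of 20 upstream Hippo components, 7 TEAD factors and cofactors, and 20 further YAP targets, named by up to 4 genes with the smallest adjusted p. In CDKN2A cells 12 of 20 further targets rose and 2 fell (median log2 fold change 0.46, against 0.00 for all genes tested, of which 29.4% rose and 28.3% fell). THBS1, the matrix protein thrombospondin, rose by 1.84, CRIM1 by 1.34 and NT5E, an ectoenzyme that makes adenosine, by 1.07, while MYOF fell by 0.88. With HcRed as the control 10 rose and 4 fell, where 26.4% of all genes rose and 26.9% fell. Among 20 upstream components 9 rose and 8 fell, with WWC2 (KIBRA family) at 1.48 and NF2 (merlin) at 0.74, and of 6 tested TEAD genes and cofactors 4 fell, among them VGLL3 at -0.99 and TEAD3 at -0.73. Against HcRed 4 upstream components rose and 8 fell, and 1 TEAD gene or cofactor rose and 5 fell.

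The further targets split between the overexpression lines. In NRG1 cells 8 of 19 rose and none fell (median 0.18, all genes 0.00, of which 5.86% rose and 4.91% fell), among them THBS1 at 0.99, NT5E at 0.87 and F3 (tissue factor) at 0.63. In NRF2 cells 4 of 19 rose and 9 fell (median -0.19, all genes 0.00, of which 10.4% rose and 11.2% fell), and the same THBS1, NT5E and F3 stood at -1.29, -1.62 and -0.68. In PIK3CA cells 9 of 19 rose and 2 fell (median 0.24, all genes -0.01, of which 14% rose and 13.8% fell), with the receptor kinase AXL at 1.17 and NT5E at 0.79. In FGFR1 cells 6 of 20 rose and 5 fell (7.25% and 6.23% of all genes). In FAT1 cells 7 of 20 rose and 4 fell against GFP (25% and 23.9% of all genes), and 3 of 19 rose and 9 fell against HcRed (21.9% and 21% of all genes). CRIM1 in FAT1 cells was 0.69 against GFP and -0.16 against HcRed. The lists, chosen with earlier results of these data known, are described here without a test of their own. Of the 20 upstream components 2 fell in NRG1 cells and 2 in FGFR1 cells, about the share of all genes called there (10.8% and 13.5%), and 9 rose and 3 fell in PIK3CA cells, where 27.8% of all genes were called.

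Each treatment was then compared with DMSO over the 8 lines, with line as a covariate. CSC changed 7 of 9 members (55.6% of all genes tested), BaP 5 (51.4%) and NNK 7 (51.7%). In fits limited to genes with a mean of at least 10 counts, the shares were 68.1%, 64.3% and 65.2%. There 7, 6 and 7 of 9 members were called. The 3 comparisons use the same DMSO samples. Averaged over the 8 lines, AMOT fell with all 3 compounds, and CYR61 and CTGF rose with all 3. These directions held when the dependence of log2 CPM on GC content and transcript length was removed from each library, whereas those of several other members did not. Other measures moved with treatment as well: mitochondrial genes took 0.58% to 0.85% of counts in DMSO samples with a median of 0.68%, against medians of 0.53% in CSC, 0.54% in BaP and 0.64% in NNK. Of the 7 basal epithelial markers 3 rose and 4 fell with CSC, 3 rose and 4 fell with BaP, and 4 rose and 1 fell with NNK. Their summed level was 6820 to 14516 CPM in DMSO, 5464 to 10563 in CSC, 6592 to 11482 in BaP and 7312 to 16292 in NNK samples, and the part of either measure in the changes that follow was not tested.

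AMOT had 0, 12 and 64.6 CPM as lowest, median and highest of 24 DMSO samples, and 0, 3.37 and 15.9 CPM in 23 CSC samples. Within lines, all CSC samples lay below all DMSO samples in 7 of 8 lines. In CDKN2A, PIK3CA and HcRed cells this rests on few reads. CDKN2A cells had 5, 1 and 6 counts in DMSO and 0, 0 and 0 in CSC. PIK3CA cells had 3, 4 and 5 counts against 0, 2 and 2, and HcRed cells 10, 5 and 9 against 2, 5 and 1. In NRG1 cells, where AMOT was hardly counted, the groups overlapped (7.49, 0 and 1.23 CPM in CSC, 4.54, 0 and 5.57 in DMSO). In NRF2 cells CSC samples had 15.9, 7.22 and 12.2 CPM against 64.6, 60.2 and 48.8 in DMSO, and in FAT1 cells 3.58, 6.42 and 5.29 against 46.4, 24.5 and 28.1. Over all lines CSC lowered AMOT to 0.26 of its DMSO level (log2 -1.97 ± 0.17, limma-voom adjusted p = 7.41e-18). BaP changed it by -1.04 ± 0.14 (adjusted p = 1.34e-09), a value of -0.62 without the first replicates (adjusted p = 0.0018). For NNK the value was -0.34 ± 0.13 (adjusted p = 0.022), and it was lost after the GC and length correction (adjusted p = 0.093) and without the first or the third replicates (adjusted p = 0.22 and 0.25). The response to CSC in single lines, from 1 fit over all 95 samples, was -2.57 in FAT1, -2.27 in NRF2, -2.24 in FGFR1, -2.14 in CDKN2A, -1.91 in HcRed, -1.54 in PIK3CA and -1.44 in GFP cells, each with a 95% interval below 0, and -0.43 in NRG1 cells (95% interval -1.99 to 1.14). The BaP samples lay below the DMSO samples in 4 of 8 lines and the NNK samples in 1.

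CTGF responded most to NNK. It had 0.75, 11 and 39.8 CPM as lowest, median and highest of 24 DMSO samples and 5.14, 28 and 85.4 in 24 NNK samples, ranges that overlapped because the lines differ. Within lines the NNK samples were all above the DMSO samples in each of the 8 lines. In FAT1 cells, for example, they had 12.8, 37.6 and 22.8 CPM against 0.75, 4.37 and 7.27. In GFP cells the gap was narrow, with 5.14 CPM as the lowest NNK value and 4.79 as the highest DMSO value. The GFP counts themselves overlapped, with 4, 9 and 3 in NNK and 1, 5 and 4 in DMSO. Over all lines the rise was 2.58-fold (log2 1.37 ± 0.13, limma-voom adjusted p = 1.49e-15). CSC and BaP raised CTGF by 0.56 ± 0.13 and 0.59 ± 0.14 on the log2 scale (adjusted p = 1.41e-04 and 2.67e-04). With each of these compounds the samples lay above all DMSO samples in 2 of 8 lines and overlapped them in 6.

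CYR61 rose 1.71-fold with NNK (log2 0.78 ± 0.07, adjusted p = 8.70e-18) and 1.48-fold with CSC (log2 0.57 ± 0.06, adjusted p = 6.43e-13). Its DMSO samples had 22.4, 69.7 and 163 CPM as lowest, median and highest, its NNK samples 20.8, 152 and 270, and its CSC samples 48.9, 111 and 187. Within lines all NNK samples lay above all DMSO samples in 7 of 8 lines, and all CSC samples in 6. The BaP samples lay above in 2 lines, below in 1 (NRF2 cells) and overlapped DMSO in 5. In PIK3CA cells CSC samples had 187, 168 and 162 CPM and NNK samples 163, 152 and 198, all above the DMSO samples with 108, 69.2 and 65.8. The rise with BaP was 0.16 ± 0.06 (adjusted p = 0.032), and this small value lost its call in edgeR (adjusted p = 0.062), DESeq2 (0.16), after the GC and length correction (0.093) and without the third replicates (0.29). Immediate-early genes moved with all 3 compounds, from a summed level of 230, 520 and 725 CPM as lowest, median and highest in DMSO to medians of 1404 in CSC, 1275 in BaP and 1398 in NNK, and their part in the CYR61 and CTGF changes was not tested.

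**Figure D4:**
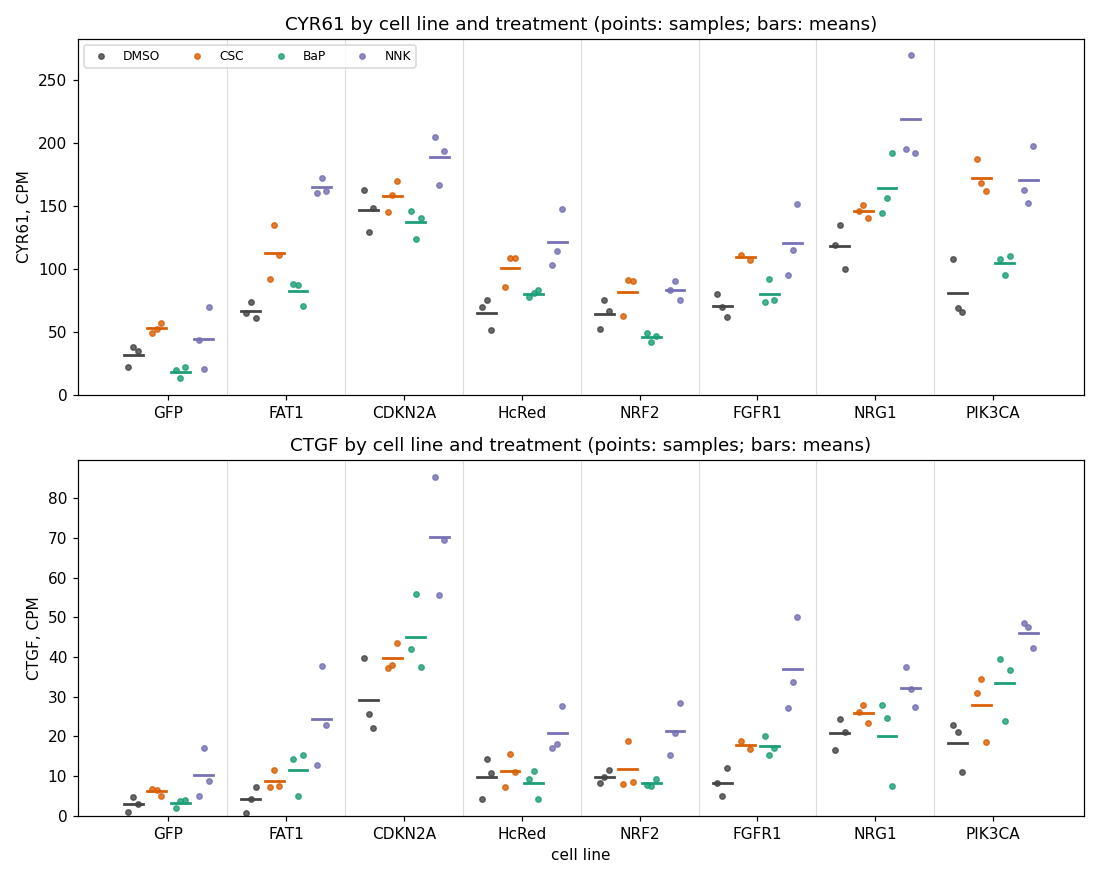
CYR61 (upper panel) and CTGF (lower panel) in CPM (y axis) by cell line (x axis) and treatment (colour), with points for samples and bars for the mean of each combination. The GFP line lies lowest for both genes, and CDKN2A cells highest for CTGF with up to 85.4 CPM in NNK. NNK lies above DMSO for CTGF in every line, by a narrow gap in GFP cells.

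Apart from AMOT, the cascade and its adaptors responded by small amounts. Their size, and in several cases their direction, depended on the correction for GC content and length. YAP1 had 175, 288 and 329 CPM as lowest, median and highest of 24 DMSO samples, and medians of 257 in CSC, 248 in BaP and 254 in NNK. It fell by 0.11, 0.18 and 0.14 on the log2 scale with CSC, BaP and NNK. After the correction these values were 0.09 (adjusted p = 0.023), 0.00 and 0.03. LATS1, whose transcript has a low GC content of 39%, fell by 0.15 with BaP and 0.17 with NNK and stood at -0.09 with CSC, and after the correction at 0.15 (adjusted p = 0.006), 0.09 and 0.22 (adjusted p = 1.49e-05). LATS2 had values between 0.01 and 0.05 with no call, and between -0.04 and -0.01 after the correction. WWTR1 rose by 0.18 with CSC, and after the correction it was higher with each compound (0.41 with CSC, 0.32 with BaP and 0.23 with NNK). AMOTL2, with 56.3% GC, rose by 0.37 ± 0.05 with NNK and by 0.10 with CSC, but by 0.16 with NNK after the correction, which turned CSC to -0.08 and BaP from 0.03 to -0.17 (adjusted p = 0.0039). AJUBA rose by 0.20 with NNK (0.10 after the correction), fell by 0.12 with CSC (0.19 after the correction) and stood at 0.02 with BaP (-0.05 after the correction). For these members a direction over treatments is given only with the scale on which it was seen.

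**Figure D5:**
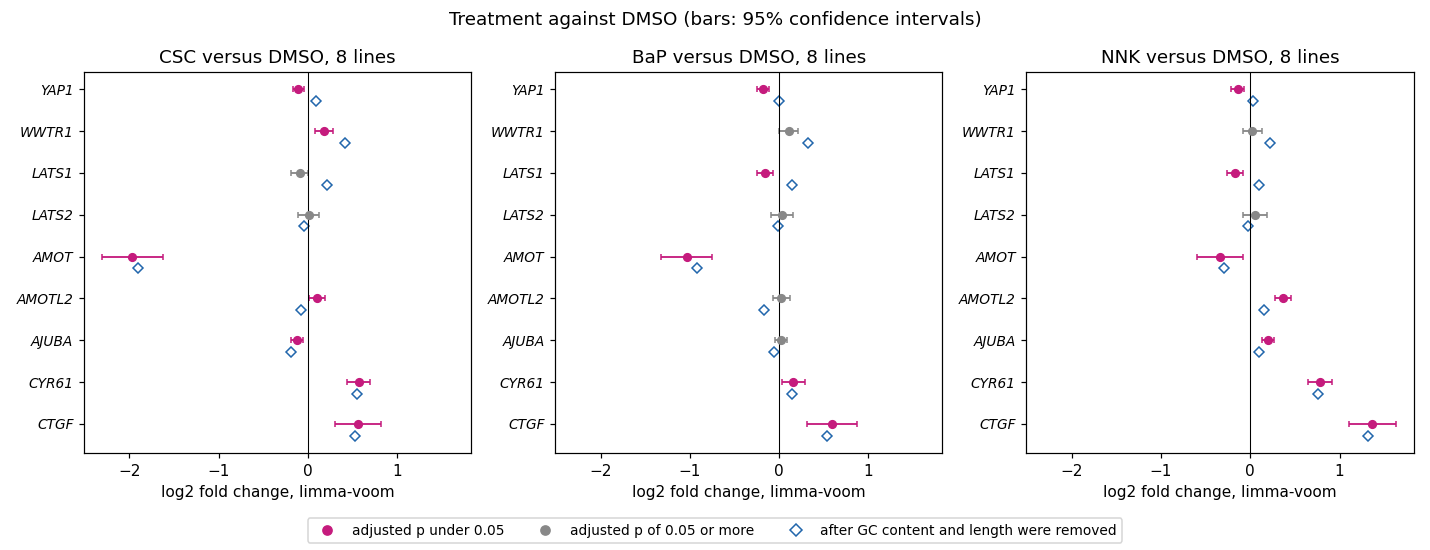
Log2 fold change (x axis) of 9 members (y axis) for each compound against DMSO over 8 lines, with 95% confidence intervals. Pink points passed an adjusted p of 0.05, grey points did not, and diamonds give the value after GC content and transcript length were removed. AMOT, CYR61 and CTGF keep their place, while the diamonds of YAP1 and LATS1 lie on the other side of 0 from their points.

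The balance of higher and lower upstream components depended on the same correction. With CSC 2 of 20 upstream components rose and 11 fell (median -0.14, all genes -0.01), with BaP 3 rose and 12 fell, and with NNK 4 rose and 10 fell, while between 25.1% and 28.4% of all genes moved in each direction with each compound. After the correction the numbers were 3 and 4, 4 and 4, and 6 and 2, and 34.2%, 25.8% and 17.5% of all genes were called. MOB1A, a cofactor of LATS kinases, stood at -0.23 with CSC and at 0.11 after the correction. PTPN14, a phosphatase that binds YAP, fell by 0.30 with CSC and 0.38 with BaP before the correction. Of the 20 further YAP targets 8 rose and 4 fell with CSC, 5 rose and 6 fell with BaP, and 8 rose and 2 fell with NNK, and after the correction 7 and 5, 4 and 5, and 5 and 1. Of 6 tested TEAD genes and cofactors 2 rose and 2 fell with CSC and with BaP, and 2 rose and 1 fell with NNK, and after the correction 1 and 1, 0 and 2, and 1 and 0. Before the correction F3 rose by 0.60 with CSC and THBS1 by 0.50, while CRIM1 fell by 0.37 with CSC and 0.41 with BaP. THBS1 rose by 0.38 with NNK on the same scale. Genes of the cell cycle list moved as well, with a summed level of 4278 to 6820 CPM in DMSO and medians of 4297 in CSC, 4423 in BaP and 4614 in NNK, against a DMSO median of 5661.

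Whether the response to a compound differed between the 8 lines was asked with an interaction term in a fit over all 95 samples. No member passed in limma-voom for CSC, BaP or NNK, where 0.779%, 0.327% and 0.0695% of all genes did, with 1, 2 and 4 members at an unadjusted p under 0.05. DESeq2 called none of the members either, and edgeR called 1 for each compound, which was CYR61. For AMOT, whose response to CSC ran from -2.57 to -0.43 among lines, the limma-voom adjusted p was 0.80, and for the CTGF response to NNK, which ran from 0.68 in NRG1 to 2.99 in FAT1 cells, it was 0.62. These fits do not show that the lines respond alike, since the intervals of single lines are wide.

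The members were related to one another over the 32 combination means of log2 CPM, which share lines and treatments and are given as a description. Pearson's r was 0.84 between CTGF and CYR61, 0.83 between CTGF and AMOTL2 and 0.79 between CYR61 and AMOTL2. AMOT ran opposite to the targets, with -0.67 against CYR61 and -0.56 against CTGF. YAP1 had 0.52 with CTGF and 0.44 with CYR61, and WWTR1 0.21 and 0.19. Among 10053 other genes with a mean of at least 10 counts, those most like CTGF included QSOX1 (0.85), ERRFI1 (0.83), SLC2A6 (0.81) and PLEC (0.81). Those most like CYR61 were DUSP5 (0.86), BHLHE40 (0.85), PLCH2 (0.84), TUBB6 (0.83) and RAB34 (0.82).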

How the data were processed

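The deposited files hold raw counts of reads per gene, which the authors made from single-end SFL reads with cutadapt 1.12, STAR 2.5.2b on hg19 and featureCounts (per the labels and methods). Strand settings of the counting were not given in the sources used here. Groups and replicate numbers came from sample titles. The counts were TMM-scaled, and limma-voom was run on genes averaging over 1 count per fitted sample (limma 3.58.1, edgeR 4.0.16, R 4.3.3), at an adjusted p of 0.05. The study also used TMM and limma-voom, for 2-group comparisons within 1 treatment or line, with another gene filter. The fits over all treatments or lines are not its own. Each fit ran over all genes. Scripts were tested on simulated counts. The text names the 10 members, the perturbed genes, up to 4 genes per pathway list and comparison with the smallest adjusted p and at least 10 mean counts, and the 5 genes most like CTGF and CYR61, of which some are not reported here. The members and lists were chosen with earlier results of these data known. Positions, lengths and GC content were taken from a GRCh37 annotation (GC content for 89.7% of symbols), CYR61 and CTGF being matched through synonyms. Alternatives were DESeq2 1.42.0, edgeR's quasi-likelihood test, DESeq2 size factors, other count filters, a replicate block, all 95 samples in the fit, a GC and length correction (loess, span 0.3) and leaving out replicates. HcRed as the control and the removal of libraries under 500000 counts were added after the data were seen. Of 94 replicate pairs none held identical counts. Microarray and 3′DGE data were not analysed here.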

Additional observations from a re-analysis of the deposited data

Results flagged for a closer look

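The response of CYR61 to each compound differed between the 8 lines in edgeR's quasi-likelihood interaction test over 95 samples, with an adjusted p of 0.0218 for CSC, 0.0261 for BaP and 0.0166 for NNK. The limma-voom values, which are those of the report, were 0.061, 0.115 and 0.133, and those of DESeq2 0.194, 0.0516 and 0.113, so none of these passed. With NNK the log2 response of single lines was 1.31 in FAT1, 1.08 in PIK3CA, 0.90 in NRG1, 0.87 in HcRed, 0.80 in FGFR1, 0.38 in NRF2, 0.32 in CDKN2A and 0.30 in GFP cells. With BaP it was -0.73 (95% interval -1.39 to -0.06) in GFP and -0.45 (-0.86 to -0.05) in NRF2 cells, against 0.43 (0.11 to 0.75) in PIK3CA and 0.42 (0.15 to 0.69) in NRG1 cells. With CSC it ran from 0.12 in CDKN2A, the line with the highest CYR61 level in DMSO, to 1.14 in PIK3CA cells.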

How the results depend on the processing

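Of 64 member differences that passed in limma-voom, 63 kept direction and call in edgeR, 58 in DESeq2, 62 with DESeq2 size factors, 58 with no filter, 59 of 60 with a mean count of at least 10, 60 with all 95 samples in the fit and 55 after the GC and length correction, and all 49 tested kept both without the libraries under 500000 counts. With HcRed as control 17 of 24 did, and 3 turned: WWTR1 in FAT1 cells (0.044 in DMSO, 0.00999 over treatments) and CTGF in FAT1 cells (-0.070). Same-numbered replicates hardly deviated together over the genes with a mean of at least 10 counts (correlations -0.0411 to 0.0685), and the main fits did not pair them. Low values over all these genes cannot exclude a shared batch that touches some of them. With the replicate block 62 kept their call, and CTGF was lost in DMSO-treated NRG1 (1.11, adjusted p = 0.082) and PIK3CA cells (0.89, adjusted p = 0.12), which left 1 member called in each.

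The GC and length correction turned YAP1 to 0.091, 0.00156 and 0.0276 for CSC, BaP and NNK, LATS1 to 0.216, 0.146 and 0.094, and LATS2 to -0.0397, -0.0083 and -0.0196. It turned AMOTL2 to -0.0816 for CSC and -0.167 for BaP, and AJUBA to -0.0546 for BaP. Leaving out replicates gave WWTR1 with NNK from -0.0347 to 0.0793, LATS2 with BaP from -0.045 to 0.134, and AMOTL2 with BaP from -0.0298 to 0.118. The causes were not tested.

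Counts of called members in DMSO were 2 for NRF2, NRG1 and PIK3CA, and became 1 with DESeq2, no filter and all 95 samples in the fit for each line, except 0 for PIK3CA with DESeq2, and also 1 for NRF2 after the GC correction and for PIK3CA with DESeq2 size factors. For NRG1 over all treatments 5 became 3 with no filter or with a mean count of at least 10. Interaction calls went from 0 to 1 for each compound in edgeR. Leaving out replicates gave 1 to 3 members for NRF2, 1 to 2 for NRG1 and 0 to 2 for PIK3CA in DMSO, 0 to 3 for FGFR1 and 2 to 4 for NRG1 over all treatments, and 0 to 1 for the BaP and NNK interactions. With a lone sample in a group, it is assumed to vary like the others. AMOT, CTGF and ANKRD1 were limited by depth, with medians of 5, 13 and 0 counts.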
